A study of Gallus gallus and Dromaius novaehollandiae with 14 samples.

Results

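The genes described here had steady levels over feather, scutate scale, reticulate scale and claw. Among such genes they are the 100 furthest above chicken in emu epidermis, judged by the appendage where the species differed least. They are 100 of the 8751 genes (1.14%) listed for both species. Expression was measured by RNA sequencing and is given as TPM, a level per transcript length that is set relative to the rest of the library. For the choice, TPM was put on the scale log2(TPM + 1) and averaged within each group of species and appendage. A gene had to reach a TPM of at least 1 in all 14 libraries, which 5596 genes did. It also had to be steady, meaning that within each species the highest and lowest appendage mean lay less than 1 log2 unit apart, which left 3358 genes. These were ranked by a score, the smallest of the 4 emu minus chicken differences, 1 per appendage, and the top 100 are the members. The members were thus chosen on the species difference itself, so that difference is given as a description and carries no test.

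The libraries came from epidermis of placode tracts of emu and chicken embryos. The emu groups were feather (2 libraries), scutate scale (2), reticulate scale (1) and claw (1). The chicken groups were the same 4 appendages with 2 libraries each. In both species feather was taken at Hamburger and Hamilton stages 33 to 34, scutate scale at 37, reticulate scale at 39 and claw at 36, so stage and appendage cannot be told apart. Emu eggs were incubated at 35.5 °C and chicken eggs at 37.8 °C, and every sample went through dispase, a protease that frees the epidermis from the dermis, at 10 mg/mL and 4 °C for 13 h. Species, incubation temperature and the way each species' transcripts were assigned to chicken gene IDs therefore cannot be told apart in any emu minus chicken difference. Only the emu columns are labelled as scaled, and each sums to 550000 TPM, so this scaling goes with species too. Values under other scalings are given below. Since the samples were bulk tissue, more cells of a type and more RNA per cell cannot be told apart either.

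A placode is a local thickening of the embryonic epidermis from which a skin appendage can grow. Scutate scales are the large plates of the shank and toes, reticulate scales are the low, round bumps under the foot, and the claw is a keratinised sheath on the toe tip. The series title names concerted evolution, the idea that an expression change along a lineage is shared by several tissues of that lineage. The rule above ranks genes by a difference between the species that the appendages share, in the emu direction. Emu and chicken alone do not show on which lineage a level changed. The table gives genes as Ensembl chicken IDs, and 0 of the 8751 could be paired with a symbol in the annotation table used here. Members are therefore given by their rank and, for the first 2, by ID, and no role, pathway or cell type is assigned to them. The labelled tissue could for the same reason not be checked against marker genes.

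The members were moderately abundant genes in emu and low to moderate ones in chicken. Their mean TPM ranged from 11.6 to 2496 in emu, with a median over members of 65.1, and from 1.79 to 363 in chicken, with a median of 10.8. In emu 0 members averaged under 10 TPM, 71 lay from 10 to 100 and 29 at 100 or more, whereas in chicken 46 averaged under 10 TPM, 50 lay from 10 to 100 and 4 reached 100. The typical member held a different place among the genes of each species, which follows from choosing genes on the species difference. Ranked among all 8751 genes by mean TPM, the median member stood at percentile 82.0 in emu and 41.9 in chicken. In emu 27 members were in the top 10% of genes and 5 were below the 50th percentile, against 4 and 72 in chicken. The 3358 genes within both limits had a median percentile of 71.4 in either species.

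**Figure D1:**
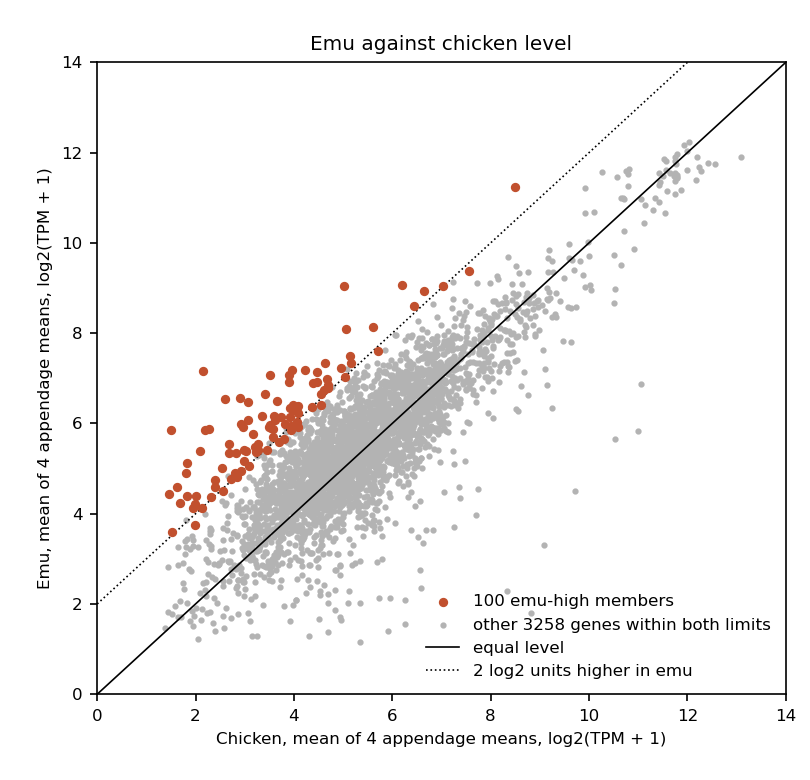
Emu level (vertical axis) against chicken level (horizontal axis) of the 3358 genes within both limits, each the mean of 4 appendage means on the log2(TPM + 1) scale. The 100 members (orange) lie along the upper edge of the cloud, mostly toward its low chicken end, with 46 under 10 TPM and 4 at 100 or more in chicken, and 84 of them are at or above 2 log2 units over the line of equal level.

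As a ratio of mean TPM, emu over chicken, the members spanned 3.61 to 39.0 with a median of 5.58. The ratio was at least 5 for 64 members, at least 10 for 15 and at least 20 for 2. On the log2(TPM + 1) scale the difference averaged over appendages was at least 2 for 84 members, at least 3 for 19 and at least 4 for 3. That scale understates the change of genes with low TPM, such as the members near 2 TPM in chicken. Summed over the 100 members, TPM was 12637 ± 496 in emu (SD, n = 6 libraries) and 2137 ± 122 in chicken (SD, n = 8 libraries), a ratio of 5.91. Here and below, such an SD is over the libraries of all 4 appendages. It mixes appendage and replicate spread, and the rule limited the spread over appendages. Members made up 2.16% to 2.42% of the table's summed TPM in the emu libraries and 0.362% to 0.416% in the chicken libraries. A few abundant members weighed heavily in these sums: the 5 with the highest emu TPM gave 35.6% to 39.2% of the sum in emu and 34.1% to 39.7% in chicken. Without them the sums were 7852 ± 232 in emu and 1346 ± 93.5 in chicken (SD, n = 6 and n = 8), a ratio of 5.83.

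The first member by score was ENSGALG00000008852. Its TPM in emu was 130 and 119 in feather, 135 and 143 in scutate scale, 141 in the reticulate scale library and 163 in the claw library, against 3.01 and 2.92 in chicken feather, 3.29 and 4.58 in scutate scale, 2.93 and 3.72 in reticulate scale, and 2.20 and 5.78 in claw. The 6 emu libraries were all far above the 8 chicken ones, and the widest relative spread between replicates was in chicken claw. The mean was 139 ± 14.8 TPM in emu and 3.55 ± 1.13 TPM in chicken (SD, n = 6 and n = 8), and the log2 difference was 5.14 in claw, 5.04 in reticulate scale, 4.99 in feather and 4.84 in scutate scale. Its 4 differences lay within 0.30 log2 units of each other.

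The second was ENSGALG00000007680, a gene close to the lower TPM limit in chicken. Its TPM in emu was 58.8 and 56.9 in feather, 58.3 and 58.6 in scutate scale, 49.0 in the reticulate scale library and 64.5 in the claw library, against 2.14 and 1.29 in chicken feather, 1.70 and 1.15 in scutate scale, 3.07 and 2.07 in reticulate scale, and 1.94 and 1.65 in claw. The emu libraries were nearly level, and the chicken libraries did not overlap with them. The difference was smallest in reticulate scale, at 3.82, where emu was at its lowest and chicken at its highest, and it was 4.46 to 4.62 in the other appendages.

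The third member joined a high level to a large difference. Its TPM in emu was 447 to 579 with a median of 526 (6 libraries), and in chicken it was 15.5 to 61.1 with a median of 32.9 (8 libraries). It was among the 5 most abundant members in emu and the only one of those 5 in the first 10 by score. The members ranked 4 to 10 had mean TPM of 59.6 to 140 in emu and 3.67 to 14.8 in chicken. The highest score was 4.84, and the median score over all 100 was 2.01.

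The most abundant member in both species was ranked 21. Its TPM in emu was 2493 and 2776 in feather, 2725 and 2598 in scutate scale, 2280 in the reticulate scale library and 2103 in the claw library, against 321 and 332 in chicken feather, 370 and 376 in scutate scale, 368 and 404 in reticulate scale, and 401 and 329 in claw. It alone supplied up to 21.6% of the members' summed TPM in each emu library. The other 4 of the 5 most abundant were ranked 3, 22, 95 and 97, with mean TPM of 524 to 712 in emu and 33.7 to 190 in chicken.

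**Figure D2:**
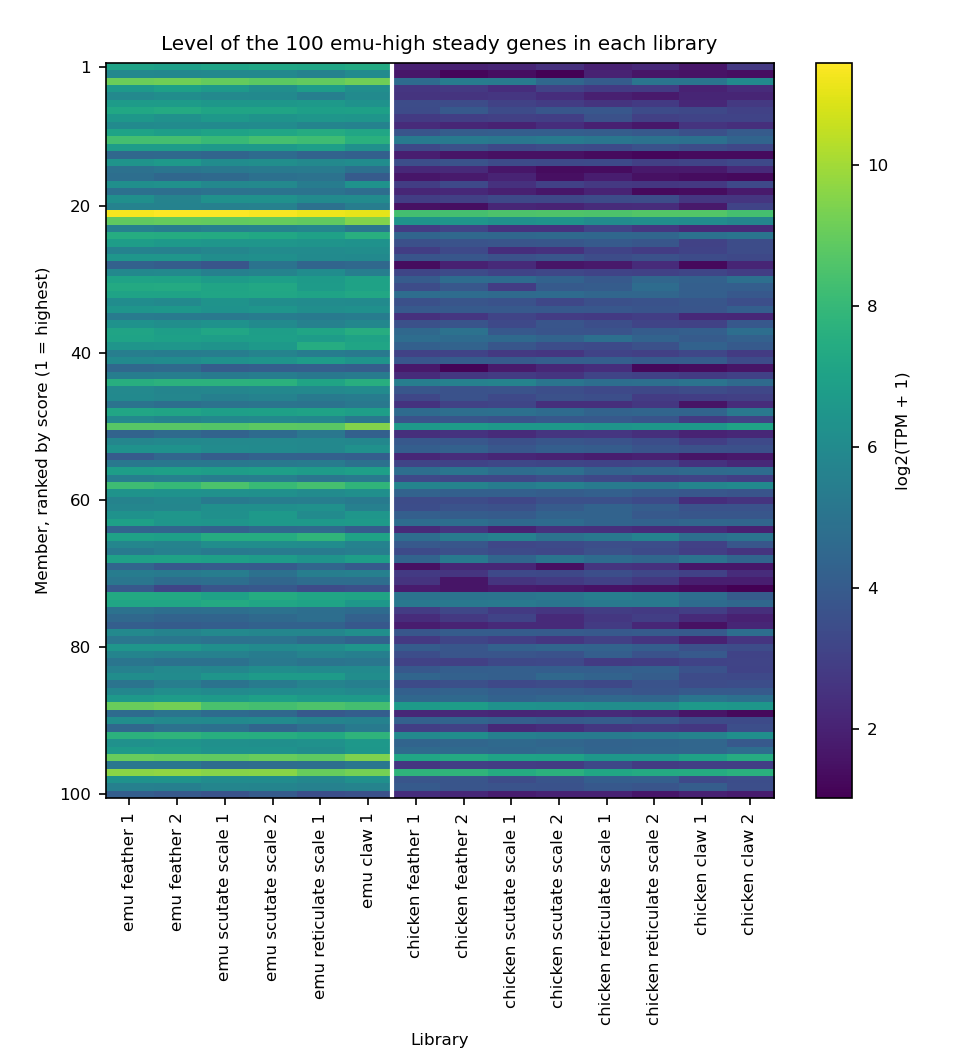
Level of each of the 100 members (rows, in order of score) in each of the 14 libraries (columns, emu left of the white line and chicken right of it), as colour on the log2(TPM + 1) scale. Each row changes at the white line and is close to one colour on either side, and the brightest row is the member ranked 21, at 2103 to 2776 TPM in emu and 321 to 404 TPM in chicken.

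The edge of the list was not marked by a gap. The last 3 members, ranked 98, 99 and 100, had scores of 1.69, 1.68 and 1.68, and the first 3 genes outside had 1.68, 1.65 and 1.65. Member 100 averaged 13.3 ± 2.45 TPM in emu and 3.02 ± 0.64 TPM in chicken, and the first gene outside averaged 46.3 ± 6.77 TPM in emu and 10.6 ± 2.54 TPM in chicken (SD, n = 6 and n = 8). Among all genes, 366 had a score at or above that of member 100. Of the 266 that are not members, 202 were under 1 TPM in at least 1 chicken library and 0 in an emu library, and the other 64 reached 1 TPM everywhere but were not steady.

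The same rule with the sign turned gives the chicken-high genes that are steady over the appendages. Its top 100 had scores of 6.61 to 1.35 with a median of 1.92, so the chicken-high list starts higher and ends lower than the emu-high list. At or above the score of member 100 there were 100 steady genes higher in emu and 65 higher in chicken. Over all genes, without the limits on TPM and range, the counts at that score were 366 and 339, and 202 of the emu-high and 243 of the chicken-high genes were under the TPM limit. The imbalance among steady genes moved with the scaling of the libraries. With a common total the counts were 101 and 67. When libraries were rescaled by their median ratio to a common profile, 77 were higher in emu and 86 in chicken, and after quantile normalization the counts were 74 and 72. The median emu minus chicken difference over the 7563 genes tested was 0.13 in the deposited scaling and -0.02 after median-ratio rescaling. Median-ratio rescaling and quantile normalization bring this median near 0 by construction. Their more even counts thus follow largely from the scaling and do not show which scaling is right. The members' median difference was 2.36 in the deposited scaling, 2.22 after median-ratio rescaling and 2.24 after quantile normalization.

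The species comparison was fitted over all genes with limma in a single model of the 8 group means. Averaged over the appendages, 44.5% of the 7563 genes tested were higher in emu at a Benjamini-Hochberg adjusted p under 0.05, and all 100 members were among them. In gene counts, 3364 were higher and 2551 lower in emu as deposited, against 2950 and 3011 after median-ratio rescaling and 2985 and 2974 after quantile normalization. Both of these scalings bring the median difference near 0 by construction, as stated above. In feather the share over all genes was 32.8% and in scutate scale 34.1%, again with all 100 members. In reticulate scale and claw, which have 1 emu library each and no test, 24.0% and 26.1% of genes were higher in emu by at least 1 on the log2(TPM + 1) scale, and all 100 members were. In 22.1% of the tested genes, and in all 100 members, the lowest emu library was above the highest chicken library. The rule used these same values, so nothing is read from the members' counts. As a description of the same values, the lowest emu TPM over the highest chicken TPM was 1.88 to 20.7 over the members with a median of 3.41, and it was at least 2 for 98.

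Across appendages the members' differences were alike but not equal. The limit on the range within each species bounds how far apart a gene's 4 differences can lie, so this likeness follows from the rule. The median emu minus chicken difference was 2.61 in claw, 2.34 in reticulate scale, 2.31 in feather and 2.26 in scutate scale. Over the 3358 genes within both limits the medians were 0.27, 0.08, 0.04 and 0.02 in the same order, so claw was the highest in both sets in the deposited scaling. This order depended on the scaling of the libraries: the members' median in claw was 2.30 after median-ratio rescaling, beside 2.20 to 2.24 in the other appendages, and 2.22 after quantile normalization, the lowest of the 4. The summed TPM of the table was 500783 and 521547 in the chicken claw libraries, against 537026 to 575133 in the other 6 chicken libraries and 550000 in each emu library. With every library scaled to the same total, the members' median was 2.53 in claw and 2.28 to 2.34 in the others, and 94 of the 100 members were chosen again. In the deposited scaling claw gave the largest of the 4 differences for 37 members and the smallest for 15. With a common total these counts were 31 and 25. After median-ratio rescaling claw gave the largest for 25 and the smallest for 36, and after quantile normalization the largest for 14 and the smallest for 46. Reticulate scale gave the smallest in the deposited scaling for 36 members, feather for 33 and scutate scale for 16, and this smallest value is what the score records.

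**Figure D3:**
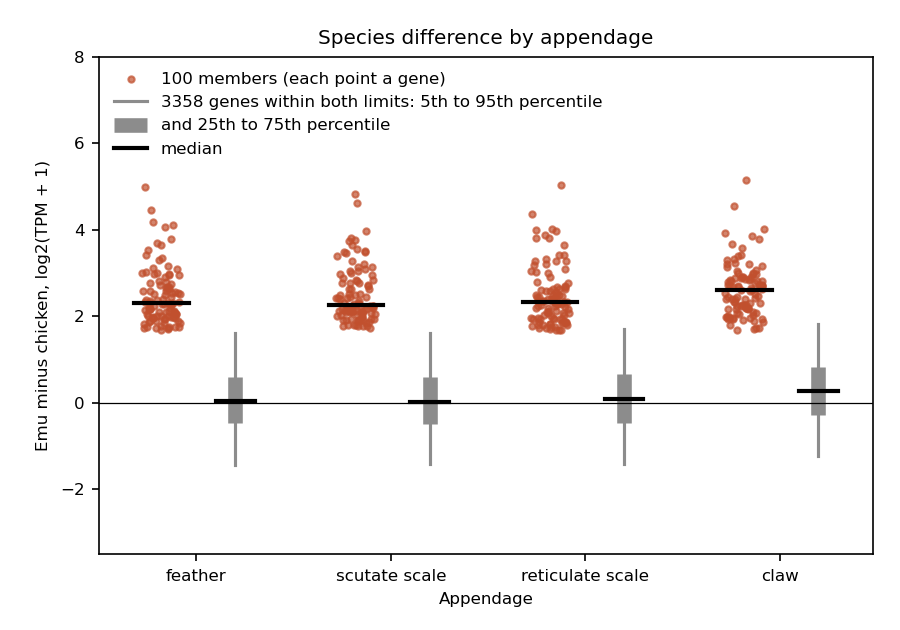
Emu minus chicken difference on the log2(TPM + 1) scale in each appendage, for the 100 members (orange points, with their median as a black line) and for the 3358 genes within both limits (grey bars, 25th to 75th percentile, and lines, 5th to 95th percentile). Member medians are 2.26 to 2.61 and those of the 3358 genes 0.02 to 0.27, with claw highest in both in this, the deposited scaling; after quantile normalization the members' median in claw is the lowest, at 2.22.

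Within a species, the spread over appendages of the members was close to that of the other genes held to the same limit. The range of appendage means had a median of 0.44 log2 units over members in emu and 0.57 in chicken, beside 0.46 and 0.55 over the 3358 genes. It was under 0.5 in both species for 25 members, beside 26.7% of the 3358 genes. The steadiest member in emu was ranked 52, with a range of 0.07, and in chicken the one ranked 85, with 0.11. Steady in both was the member ranked 99: its TPM was 45.4 to 52.9 with a median of 49.0 in emu and 10.5 to 16.0 with a median of 12.7 in chicken, and its larger range was 0.20, the smallest among the members. The members ranked 33 and 34 were the next steadiest. The TPM of member 33 was 59.6 to 81.5 with a median of 65.9 in emu and 8.56 to 13.1 with a median of 11.3 in chicken, and its larger range was 0.24. The TPM of member 34 was 70.9 to 93.2 with a mean of 82.3 in emu and 12.5 to 16.6 with a mean of 14.1 in chicken, and its larger range was 0.34.

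The widest range was that of the member ranked 84, at 0.997 log2 units in chicken, just inside the limit. Its TPM was 65.6 to 107 with a median of 78.3 in emu and 8.89 to 22.4 with a median of 17.7 in chicken. The chicken claw libraries, at 9.70 and 8.89 TPM, lay apart from the other 6, which were at 16.3 to 22.4, while in emu the claw library, at 68.9, lay between those of feather, at 69.9 and 65.6. Its difference was 2.76 in claw and 1.76 in feather.

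The member ranked 39, next in range, had the least even difference. Its TPM in emu was 87.6 and 90.1 in feather, 83.2 and 100 in scutate scale, 178 in the reticulate scale library and 139 in the claw library, against 17.9 and 19.5 in chicken feather, 12.9 and 10.4 in scutate scale, 9.32 and 11.1 in reticulate scale, and 19.0 and 14.7 in claw. In emu the single reticulate scale library was the highest, while in chicken the reticulate scale libraries were among the lowest. The difference was 4.00 in reticulate scale and 2.19 in feather, a gap of 1.81 log2 units and the largest among the members. It rests on 1 emu library. The member ranked 20 came next, with a gap of 1.60: its difference was 4.18 in feather and 2.58 in reticulate scale. This gap too rests on 1 emu library, at 29.2 TPM in reticulate scale. Its chicken feather libraries, at 1.81 and 1.65 TPM, were close to the lower TPM limit. At the other end, the 4 differences of the member ranked 78 lay within 0.07 of each other. The median gap was 0.59 over the members and 0.56 over the 3358 genes.

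**Figure D4:**
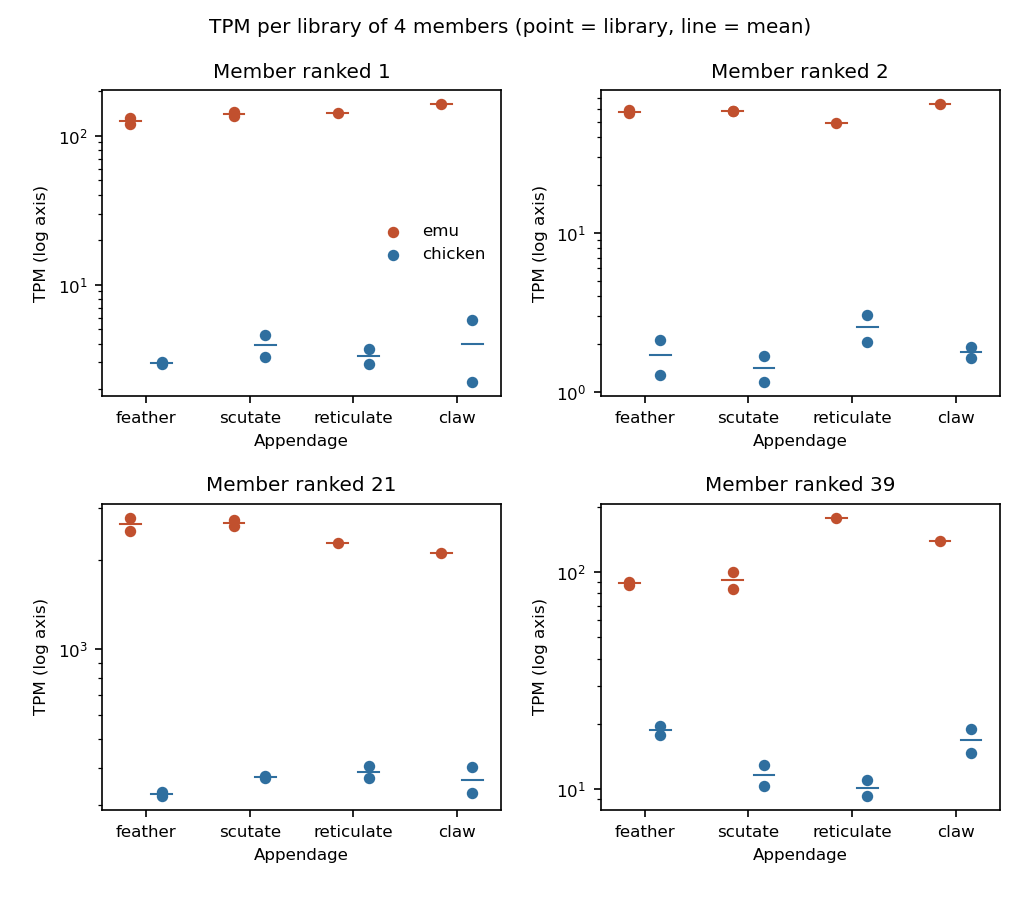
TPM (log axis, its range set for each panel) in every library of the members ranked 1, 2, 21 and 39, by appendage, with emu (orange) left of chicken (blue); points are libraries and lines are means. The emu points lie above all chicken points in each panel, and in the panel of member 39 emu is highest in reticulate scale, at 178 TPM, where the chicken mean is lowest, with 9.32 and 11.1 TPM.

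The rule limits how far apart the appendages may lie but not which is highest. In the deposited scaling, in emu the highest mean was in feather for 34 members, in claw for 28, in reticulate scale for 24 and in scutate scale for 14, beside 34.5%, 26.7%, 27.1% and 11.6% of the 3358 genes. In chicken it was in feather for 45 members, in reticulate scale for 27, in scutate scale for 15 and in claw for 13, beside 43.9%, 22.3%, 20.7% and 13.1%. The lowest mean in chicken was in claw for 51 members, beside 59.0% of the 3358 genes. In that scaling both sets were thus tilted in chicken, with feather most often the highest and claw most often the lowest. The tilt turned round under other scalings: claw held the highest chicken mean for 47 members after median-ratio rescaling and for 49 after quantile normalization, and feather for 20 and 16. With a common total claw was still the lowest, for 46 members. The median deviation of members from their own species mean was, as deposited, 0.06 in feather and -0.04 in claw in emu, and 0.13 and -0.17 in chicken. In chicken claw it was 0.10 after median-ratio rescaling and 0.08 after quantile normalization, so the place of claw changed with the scaling. In emu the members' medians fell from feather through scutate to reticulate scale in every scaling. Emu reticulate scale, a single library, was always the lowest, at -0.08 after median-ratio rescaling and after quantile normalization. As deposited it and emu claw both rounded to -0.04.

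The small appendage differences that remained were only partly alike in the species. The highest appendage was the same in emu and chicken for 34 members, beside 38.6% of the 3358 genes, and the lowest was the same for 45, beside 43.3%. Feather minus claw had the same sign in both species for 62 members, beside 63.9%, and feather minus reticulate scale for 57, beside 64.2%. Across members, the emu and chicken values of feather minus claw correlated at r = 0.29 (n = 100 genes, which share libraries), as did those of the 3358 genes. Emu claw is a single library, and chicken claw had the widest median replicate difference over members, at 0.27 log2 units. For feather minus scutate scale, the contrast with 2 libraries in every group, the sign was the same for 57 members, beside 59.7%, and r was -0.02 over members and 0.17 over the 3358 genes. For feather minus reticulate scale r was 0.10 over members and 0.37 over the 3358 genes, and emu reticulate scale is a single library. Over the 4 scalings the same highest appendage was shared by 28 to 40 members and the same sign of feather minus claw by 55 to 65. A single factor per library shifts all genes nearly alike, so r can hardly change under median-ratio rescaling or a common total. After quantile normalization r over members was 0.29 for feather minus claw and 0.02 for feather minus reticulate scale. These are descriptions of values that the score used, and the differences between members and other genes were not tested.

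**Figure D5:**
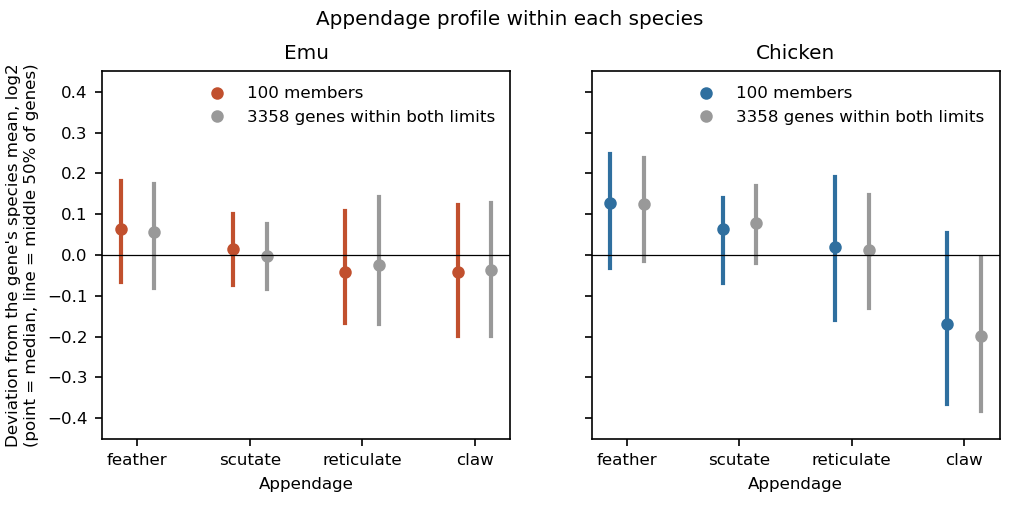
Deviation of each appendage mean from the gene's own species mean (log2 units), in emu (left) and chicken (right); points are medians over genes and lines the middle 50% of genes, for the 100 members (colour) and the 3358 genes within both limits (grey). As deposited, the emu medians of the members lie between -0.04 and 0.06, and the chicken ones are 0.13 in feather and -0.17 in claw; that chicken claw value is 0.10 after median-ratio rescaling.

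Replicate spread did not enter the score, which took group means. It is not independent of the rule, since the TPM limit applied to every library and the range limit to means of 1 or 2 libraries. The median absolute difference between replicates over the members was 0.11 log2 units in emu feather and 0.11 in emu scutate scale. In chicken it was 0.27 in claw, 0.18 in reticulate scale, 0.17 in scutate scale and 0.14 in feather. Over the 3358 genes the same medians were 0.09 and 0.12 in emu, and 0.23, 0.14, 0.15 and 0.08 in chicken. In all 4 chicken groups and in emu feather the members thus had the larger median, and in emu scutate scale the smaller. Their median mean TPM was 10.8 in chicken, against 37.4 for the 3358 genes, and 65.1 in emu, against 41.3. The part of level in the spread was not tested. Differences between replicates of at least 1 on the log2(TPM + 1) scale, which understates those of low TPM, were seen for 1 member in emu scutate scale, 1 in chicken scutate scale, 2 in chicken reticulate scale, 2 in chicken claw and 0 in the feather groups. The widest on that scale was in chicken claw, for the member ranked 20, with 2.38 TPM in replicate 1 and 7.67 in replicate 2. The median residual SD within groups was 0.17 log2 units over the members, 0.14 over the 3358 genes and 0.19 over the 7563 genes tested.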

How the data were processed

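Epidermis of 4 placode tracts was profiled in emu (6 libraries) and chicken (8 libraries), with groups and replicate numbers taken from the titles. Per the submitters' processing notes, CASAVA, TopHat2 2.0.6 and HTSeq 0.5.3p9 took part, with no role or order named. The quantification program, genome builds, filters and the matching of emu transcripts to chicken IDs are not given in the sources used here. The deposited values of 8751 genes are, as read here, square roots of TPM, another scale than the planned tests assumed. The header is silent on this, and the reading rests on the squares of each emu column, which sum to 550000 as scaled by the authors. Values were squared to TPM and analysed as log2(TPM + 1). TPM keeps no read numbers, so depth is unknown and no counting error is given. The design text calls the replicates biological but does not say how many embryos each held, so p-values measure only the spread between these samples. In 6 replicate pairs, 0 genes had identical values above 0.

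Genes with at least 1 TPM in at least 2 libraries (7563) were fitted with limma 3.58.1 in R 4.3.3 (lmFit, eBayes with trend), 8 group means and 6 residual degrees of freedom. The lone emu reticulate scale and claw libraries took their error from the replicated groups. P-values were Benjamini-Hochberg adjusted over all genes tested. The code was tested on simulated data. Python 3.11.15, numpy 2.4.6, pandas 2.3.3 and matplotlib 3.10.9 were used.

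Members and lists were chosen with earlier results of these data known. The 16 pathway lists and the cell type markers were written as symbols and could not be applied, since 0 IDs matched one. Members described singly were the 10 highest by score, the 5 highest in emu TPM, the 3 widest and 3 narrowest in appendage range and the last 3 of the list. Those with the extreme range in 1 species or extreme gap between appendages (ranked 52, 85 and 78) were picked after their values were seen. Alternatives were a pseudocount of 0.1, a TPM limit of 5 or none, median-ratio rescaling, quantile normalization, eBayes without trend, a replicate block, a log2 difference of at least 1, fits of 4 libraries, other forms of the rule and leaving out each library. A common total was added after seeing the data.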

Additional observations from a re-analysis of the deposited data

How the results depend on the processing

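The direction and call of each member follow from the rule, so their values under other settings are no sign of stability. The counts of genes called in either direction moved by over 1.5 times only when a log2 difference of at least 1 was required, to 2650 over the appendages (from 5915), 2679 in feather (from 4721) and 2772 in scutate scale (from 4791). Leaving out each library gave 5667 to 6103, 3830 to 5183 and 4041 to 5212. Without the lone emu reticulate scale or claw library, the average over the appendages was taken without that appendage. The members' median difference ranged from 2.22 to 2.50, and from 2.26 to 2.38 with each library left out.

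Which genes are members depended more on the rule. Of the 100, 65 were chosen again at a TPM limit of 5, 25 at an appendage range under 0.5, 59 with no limit on the range and 38 from feather and scutate scale alone. A tighter limit removes members and a looser one admits other genes by construction: 897 genes met the limit of 0.5 and 5596 were ranked without one. Every member that meets a tighter limit stays in the top 100. The counts of 65 and 25 are therefore the members that met those limits and say nothing on the ranking. Leaving out each library in turn gave 55 to 98. Without the lone emu claw or reticulate scale library, that whole appendage left the rule in both species. The count was then 55 without claw, when 4729 genes met the limits in place of 3358, and 78 without reticulate scale, when 3788 did.

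The appendages were taken at different stages, so no embryo can be shared between groups, within a species or between them. A replicate number does not by itself show a shared batch, and such sharing was not tested. Same-numbered deviations correlated at -0.01 between the species in feather and 0.07 in scutate scale. Within chicken they correlated at -0.23 for scutate with reticulate scale, -0.19 for feather with scutate scale and 0.19 for feather with reticulate scale. These were the ends of the range between groups. With the replicate block 5820, 4645 and 4746 genes were called over the appendages, in feather and in scutate scale in either direction. The order of the appendages changed with the scaling of the libraries, as given with those values above. The ratio of the members' summed TPM was 5.24 after median-ratio rescaling and 5.66 after quantile normalization. Depth could not be examined from TPM.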
